A study of Mus musculus with 35 samples.

Results

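Resident Kupffer cells (ResKCs) sorted as CLEC4F+TIM4+ macs from mice fed a Western diet (WD) for 24 weeks were compared with ResKCs from mice kept on a standard diet (SD) for the same time. The members are the 6 WD and the 6 SD samples whose labels name this population and time, 12 of 35 samples in all, and the 13421 gene symbols over 1 CPM (counts scaled to a common library total) in at least 5 of the 35 samples, of 54735 counted. All mice were C57Bl/6J males that entered the diets at 5 weeks of age. The WD held excess fat and cholesterol and came with fructose and sucrose in the drinking water, and the SD was a low-fat diet with corn starch. Cells were sorted from liver by flow cytometry on CLEC4F and TIM4, and bulk RNA was sequenced. The remaining samples are ResKCs after 12 weeks (7 SD, 5 WD) and, on the WD at 24 weeks, 5 samples of CLEC4F+TIM4- monocyte-derived KCs (moKCs) and 6 of CLEC4F- macs. The labels do not say that each sample is a separate mouse, so the p-values measure the spread between these samples only.

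KCs are the resident macs of the liver sinusoids, where they take up particles, dying cells, iron and lipoproteins from the blood. Their identity depends on signals from neighbouring endothelial, stellate and hepatocyte cells, among them BMP ligands and liver X receptor (LXR) agonists, and is marked by the lectins CLEC4F and CD207, the phosphatidylserine receptor TIM4 and the complement receptor VSIG4. Macs that take up much lipid, in fat, artery wall or fatty liver, often turn on a lipid-associated set of genes around the receptor TREM2, with tetraspanins, lipases, fatty acid carriers and lysosomal genes.

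The samples held 11749343 to 14729952 counts each, and the KC markers were high in all of them. The summed level of 10 KC markers ran from 46300 to 52450 CPM in SD and from 39880 to 48920 CPM in WD. *Clec4f*, which encodes the sorting antigen, ran from 12320 to 15740 CPM (median 14840) in the SD samples and from 11170 to 15580 CPM (median 12040) in the WD samples, and did not pass (log2 fold change -0.20 ± 0.33 (SE), edgeR adjusted p = 0.765). The defining monocyte marker *Ly6c2* stayed at or under 0.815 CPM in all 12 samples, *Ccr2* at or under 6.85 CPM, and *Chil3* and *Vcan* had no count in any SD sample. Markers of other cell types differed in range between the groups. The sum of 12 hepatocyte markers ran from 547 to 1618 CPM in SD and from 1152 to 3592 CPM in WD, and that of 7 monocyte markers from 165 to 264 and from 219 to 349 CPM. The monocyte markers did not move together. *Hp*, which hepatocytes also make, was the only one that passed, with medians of 49.8 CPM in SD and 126 CPM in WD. *Plac8* had medians of 160 CPM in SD and 108 CPM in WD. The sum of 8 B cell markers was 55.7 to 113 CPM in SD and 19.7 to 55.9 CPM in WD, and that of 10 sinusoidal endothelial markers 1258 to 2474 and 885 to 1468 CPM. Markers of the other 7 types summed to at most 593 CPM in any sample, those of neutrophils to at most 6.86 CPM and those of T and NK cells to at most 5.44 CPM. In bulk samples fewer cells of a type and less RNA per cell cannot be told apart.

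Stress response genes and the naming of the alignments also differed between samples. The mean log2 CPM of 10 immediate-early and heat-shock genes, which respond to handling and stress, was -0.90, 0.27, 1.20, 1.26, 1.82 and 1.02 in SD replicates 1 to 6 (centred per gene) and -0.95, -1.98, -1.58, -0.84, 0.33 and -0.72 in WD replicates 1 to 6. WD replicates 4 to 6 carry another alignment naming scheme in the file headers than WD replicates 1 to 3 and all 6 SD samples; what the schemes stand for is not given in the sources used here. Their part in the results was not tested beyond the settings that follow. For each gene list there were 3, with the immediate-early and heat-shock score as a covariate (the stress covariate), with WD replicates 1 to 3 alone against SD, and without SD replicates 1 and 2. The count of calls in each gene list under the 3 settings stands beside the list. So do the named genes whose call was lost with the stress covariate, each with its edgeR log2 fold change there. Another fit took the naming scheme as a covariate, and 897 genes passed at an edgeR adjusted p under 0.05. Calls lost in that fit, with WD replicates 1 to 3 alone or without SD replicates 1 and 2 are given for some genes only.

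Of the 13421 genes, 1169 passed at an adjusted p under 0.05 by the quasi-likelihood test of edgeR, adjusted after Benjamini and Hochberg (8.71%). WD ResKCs had higher levels of 650 of these (4.84% of all genes) and lower levels of 519 (3.87%). Rises were larger than falls, with medians of 0.96 among the genes that rose and -0.53 among those that fell (log2). An absolute log2 fold change over 1 was reached by 450 genes (3.35%), 319 up (2.38%) and 131 down (0.976%), and 184 rose and 31 fell by more than 2. In 551 genes (4.11%) the 6 WD and 6 SD samples did not overlap, 294 with all WD samples above (2.19%) and 257 with all below (1.91%). The share of rises among the genes that passed was 55.6%, and 77% when libraries were scaled by total count alone, where 1139 rose and 340 fell. The median log2 fold change of all genes was 0.004 with the TMM scaling and 0.08 with total counts. The first principal component of the 12 samples held 28.96% of the variance and kept all SD samples (-49.0 to -23.1) apart from all WD samples. Without SD replicates 1 and 2, 696 genes passed, with WD replicates 1 to 3 alone 441, and with the stress covariate 469. The counts of each gene list are to be read against the shares of 4.84% up and 3.87% down over all genes.

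**Figure D1:**
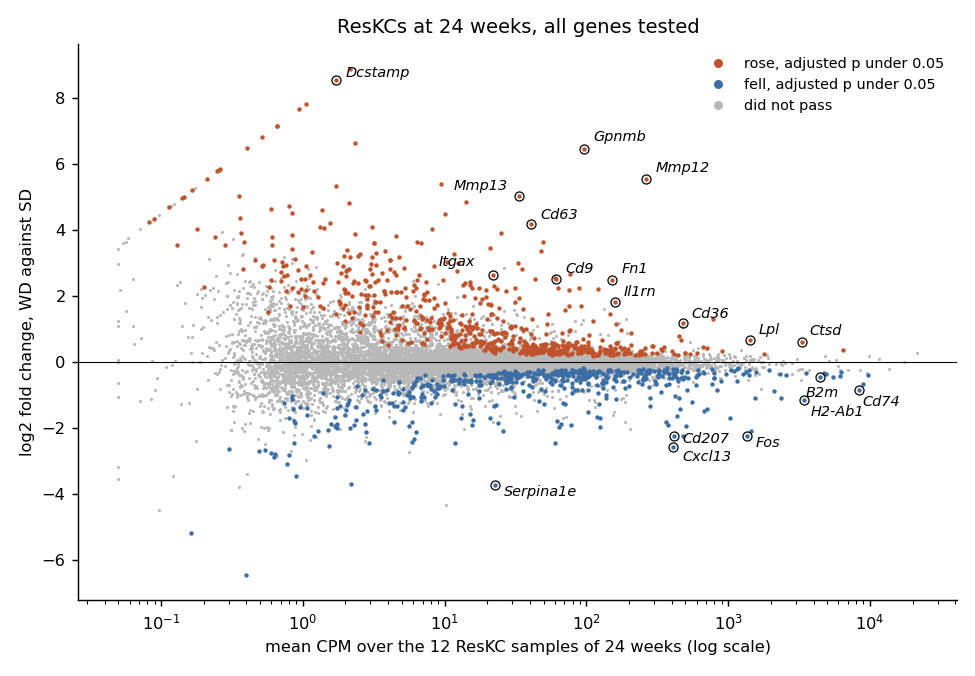
Fitted log2 fold change of WD against SD ResKCs at 24 weeks (vertical axis) by mean CPM over the 12 samples (horizontal log axis), 1 point per gene tested. Of 13421 genes, 650 rose (orange) and 519 fell (blue); the orange points reach further from 0 than the blue ones, and the line of points at the upper left are genes near 0 counts in SD.

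Lipid-associated macrophage genes rose together. Of the 21 members, 16 rose and the other 5 did not pass, with a median log2 fold change of 1.48 against 0.004 over all genes. *Gpnmb* (chromosome 6, 49036546 to 49070929 in mm10), a glycoprotein of lysosomes and a marker of lipid-laden macs, ran from 0.491 to 3.75 CPM (median 2.10) in the SD samples and from 66.7 to 495 CPM (median 117) in the WD samples. No sample of 1 diet reached the range of the other (log2 fold change 6.47 ± 0.84 (SE), edgeR adjusted p = 7.25e-06). *Mmp12*, the macrophage elastase (chromosome 9, 7344381 to 7369499), ran from 4.76 to 15.8 CPM (median 11.8) in the SD samples and from 234 to 1041 CPM (median 453) in the WD samples. It too had no overlap (log2 fold change 5.55 ± 0.73 (SE), edgeR adjusted p = 8.51e-06), with WD replicate 6 far above the others of its group. *Trem2*, the lipid-sensing receptor, ran from 18.1 to 61.8 CPM (median 27.5) in the SD samples and from 69.2 to 216 CPM (median 85.6) in the WD samples. The lowest WD sample lay just above the highest SD sample (log2 fold change 1.58 ± 0.34 (SE), edgeR adjusted p = 0.00316). WD replicate 6 held the top value of *Trem2*, and the next WD sample had 107 CPM. With the WD samples of the SD naming scheme alone *Trem2* did not pass (log2 fold change 1.17, edgeR adjusted p = 0.0718). Without WD replicate 6 it passed (log2 fold change 1.245, edgeR adjusted p = 0.0173).

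*Cd63*, a tetraspanin of late endosomes and lysosomes, ran from 3.09 to 5.50 CPM (median 4.07) in the SD samples and from 41.03 to 158 CPM (median 65.99) in the WD samples. All WD samples were higher (log2 fold change 4.17 ± 0.49 (SE), edgeR adjusted p = 2.93e-06). Its processed copy *Cd63-ps* moved alike (4.02), and reads of such copies may have been split or shared between them. *Cd9*, a tetraspanin of the cell surface, ran from 10.3 to 26.5 CPM (median 18.2) in the SD samples and from 53.5 to 181 CPM (median 100.6) in the WD samples, again without overlap (log2 fold change 2.53 ± 0.32 (SE), edgeR adjusted p = 6.17e-06). *Itgax*, which encodes the integrin CD11c, ran from 2.45 to 8.15 CPM (median 6.56) in the SD samples and from 20.97 to 68.4 CPM (median 32.3) in the WD samples, without overlap (log2 fold change 2.63 ± 0.35 (SE), edgeR adjusted p = 9.85e-06). *Cd36*, a receptor for fatty acids and oxidized lipoproteins, was already well expressed on SD and ran from 156 to 402 CPM (median 284) in the SD samples and from 519 to 885 CPM (median 649) in the WD samples (log2 fold change 1.19 ± 0.17 (SE), edgeR adjusted p = 4.08e-05).

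The remaining lipid-associated genes described here were chosen after their values were seen. *Lpl*, the lipase that frees fatty acids from lipoproteins, ran from 776 to 1345 CPM (median 1060) in the SD samples and from 1416 to 2412 CPM (median 1667) in the WD samples (log2 fold change 0.68 ± 0.14 (SE), edgeR adjusted p = 0.00288), with every WD sample above every SD sample. The fatty acid carriers *Fabp4* (1.79, adjusted p = 0.00296) and *Fabp5* (1.48, adjusted p = 0.00191) and the galectin *Lgals1* (1.44, adjusted p = 0.00626) also rose (log2 fold changes, edgeR). *Spp1*, which encodes osteopontin, ran from 0.0789 to 7.08 CPM (median 1.13) in the SD samples and from 3.59 to 45.1 CPM (median 9.47) in the WD samples; it passed (log2 fold change 2.92 ± 0.73 (SE), edgeR adjusted p = 0.0111), the groups overlapped, and WD replicate 6 was far above the rest. The call was lost for *Spp1* without WD replicate 6 (2.16 on the log2 scale, adjusted p = 0.0596). Without SD replicate 3 its fold change was 3.97, adjusted p = 0.00277. With WD replicates 1 to 3 alone 10 lipid-associated genes rose, with the stress covariate 9, without SD replicates 1 and 2 13, and in the 12 fits that each left out 1 sample 13 to 16. With that covariate *Gpnmb* (5.46, adjusted p = 0.000254), *Mmp12* (4.51, adjusted p = 0.000185) and *Cd63* (3.52, adjusted p = 0.000119) still passed. *Lpl* (0.46, adjusted p = 0.0896), *Fabp4* (1.05, adjusted p = 0.145), *Lgals1* (1.06, adjusted p = 0.101) and *Spp1* (2.71, adjusted p = 0.0742) did not pass with the stress covariate. Monocyte markers were at the low levels given above.

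**Figure D2:**
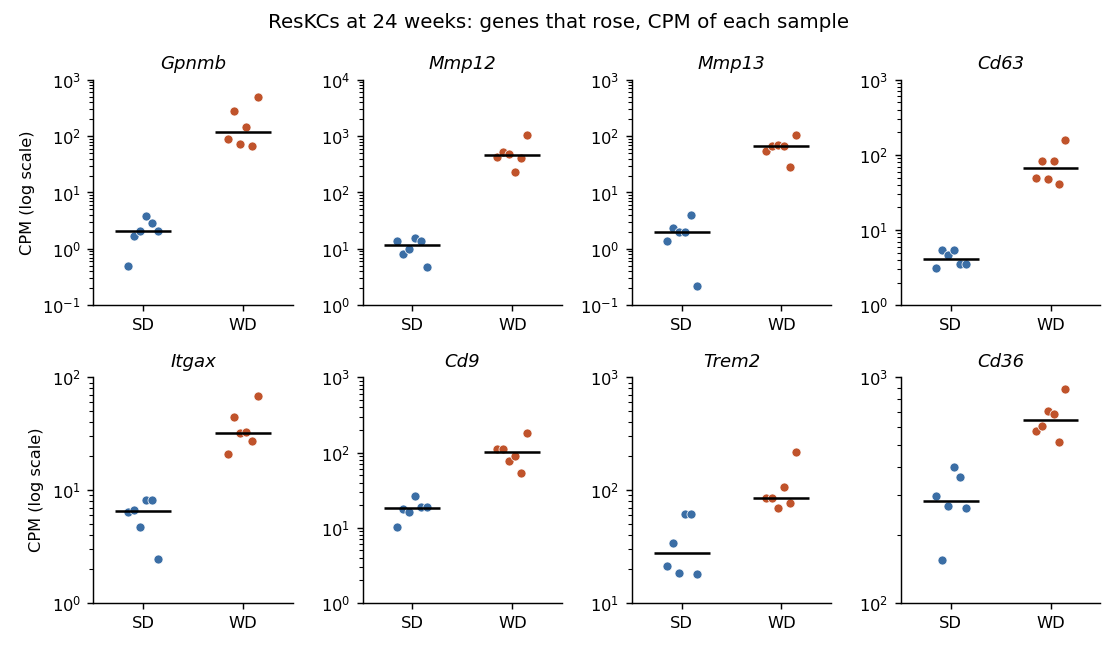
CPM (log axis) of 8 genes that rose, in each SD (blue) and WD (orange) sample of 24-week ResKCs; bars are medians of 6 samples. For all 8 genes the lowest WD sample lies above the highest SD sample, with the widest gap for *Gpnmb* and the narrowest for *Trem2*.

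In the other sorted populations of the same diet and time, the mean level of *Gpnmb* was 191 ± 168 CPM in the WD ResKCs (mean ± SD, n = 6), 271 ± 171 CPM in the moKCs (n = 5) and 1267 ± 315 CPM in the CLEC4F- macs (n = 6). For *Cd9* it was 104 ± 43.6 CPM in the WD ResKCs (mean ± SD, n = 6), 131 ± 61.5 CPM in the moKCs (n = 5) and 315 ± 52.4 CPM in the CLEC4F- macs (n = 6), and for *Fn1*, the gene of fibronectin, 259 ± 221 CPM in the WD ResKCs (mean ± SD, n = 6), 68.9 ± 18.5 CPM in the moKCs (n = 5) and 192 ± 103 CPM in the CLEC4F- macs (n = 6). These values are set side by side without a test. WD replicate 4 held 686 CPM of *Fn1* and raised the mean of the WD ResKCs, whose next sample had 300 CPM.

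Among genes of the matrix and its proteases 8 rose, 1 fell and 18 did not pass, of 28 members of which 27 were tested, with a median log2 fold change of 0.51. The collagenase *Mmp13* ran from 0.216 to 4.03 CPM (median 1.96) in the SD samples and from 27.97 to 103 CPM (median 67.1) in the WD samples, without overlap (log2 fold change 5.04 ± 0.63 (SE), edgeR adjusted p = 4.99e-06). *Adam8*, a membrane protease of activated leukocytes, ran from 0 to 1.22 CPM (median 0.158) in the SD samples and from 4.99 to 43.1 CPM (median 11.7) in the WD samples, also without overlap (log2 fold change 5.38 ± 0.82 (SE), edgeR adjusted p = 7.51e-05; 5.98, adjusted p = 0.00017 without SD replicate 4). *Fn1* ran from 13.4 to 98.8 CPM (median 41.1) in the SD samples and from 94.96 to 686 CPM (median 176) in the WD samples; WD replicate 4 stood at the top and the lowest WD sample fell inside the SD range (log2 fold change 2.49 ± 0.47 (SE), edgeR adjusted p = 0.000931). Without that replicate the fold change was 1.92, adjusted p = 0.00656, and with WD replicates 1 to 3 alone it was 1.43, adjusted p = 0.0793 and did not pass.

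The proteases *Mmp19* (1.46, adjusted p = 0.000318) and the urokinase receptor *Plaur* (1.08, adjusted p = 0.000485) rose by less (log2 fold changes, edgeR), each without overlap. *Thbs1*, the gene of thrombospondin-1, which was chosen after its values were seen, passed with overlapping groups (log2 fold change 2.26 ± 0.53 (SE), edgeR adjusted p = 0.00771). No call was left for *Thbs1* without WD replicate 4 (1.43 on the log2 scale, adjusted p = 0.0604) or with WD replicates 1 to 3 alone (0.79, adjusted p = 0.419). Matrix gene rises and falls numbered 7 and 0 with the stress covariate, 5 and 0 with WD replicates 1 to 3 alone, and, without SD replicates 1 and 2, 7 and 0.

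Of the 15 macrophage fusion and osteoclast-like genes 12 were tested; 4 rose and the other 8 did not pass (median log2 fold change 0.23). *Dcstamp* (chromosome 15, 39745930 to 39760938), a membrane protein needed for mac fusion, had 0 counts in all 6 SD samples and 43, 7, 27, 12, 49 and 124 counts in WD replicates 1 to 6. Set against 3 counts over the whole SD group it was at least 95.5-fold higher in WD (edgeR adjusted p = 8.94e-06). *Ocstamp*, its close relative, ran from 0.281 to 1.10 CPM (median 0.516) in the SD samples and from 2.98 to 10.8 CPM (median 5.35) in the WD samples (log2 fold change 3.31 ± 0.57 (SE), edgeR adjusted p = 0.000368). *Atp6v0d2*, a proton pump subunit typical of osteoclasts, ran from 0 to 1.97 CPM (median 0.815) in the SD samples and from 11.1 to 73.4 CPM (median 18.8) in the WD samples (log2 fold change 4.84 ± 0.71 (SE), edgeR adjusted p = 4.08e-05; 4.24, adjusted p = 0.000182 without WD replicate 6). All WD samples lay above all SD samples for these 3 genes. Fusion gene rises and falls numbered 3 and 0 with the stress covariate, 3 and 0 with WD replicates 1 to 3 alone, and, without SD replicates 1 and 2, 3 and 0.

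Several secreted or surface proteins outside the lists were among the highest rises. *Fam20c*, a kinase of secreted proteins, ran from 3.37 to 10.3 CPM (median 6.97) in the SD samples and from 41.05 to 100.7 CPM (median 51.4) in the WD samples (log2 fold change 3.01 ± 0.33 (SE), edgeR adjusted p = 9.17e-07). *Sema4d*, a semaphorin, ran from 0.377 to 1.51 CPM (median 1.10) in the SD samples and from 5.61 to 25.8 CPM (median 11.2) in the WD samples (log2 fold change 3.61 ± 0.49 (SE), edgeR adjusted p = 1.38e-05). *Selp*, the gene of P-selectin, ran from 0.217 to 2.21 CPM (median 0.677) in the SD samples and from 4.86 to 30.6 CPM (median 7.94) in the WD samples (log2 fold change 3.64 ± 0.59 (SE), edgeR adjusted p = 0.000187). The groups were apart for each of them. *Sulf2*, a sulfatase of heparan sulfate, rose (1.98, adjusted p = 4.07e-06; log2 fold change, edgeR), and *Mfsd12*, a cysteine transporter of lysosome-related organelles, rose by less but with a narrow spread (log2 fold change 1.32 ± 0.13 (SE), edgeR adjusted p = 8.79e-08).

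*Il1rn*, which encodes the interleukin-1 receptor antagonist, had the smallest p of all genes tested and ran from 48.9 to 83.2 CPM (median 71.9) in the SD samples and from 185 to 357 CPM (median 248) in the WD samples. The lowest WD sample lay well above the highest SD sample (log2 fold change 1.83 ± 0.17 (SE), edgeR adjusted p = 6.35e-08). *Apoa4*, an apolipoprotein made mostly by gut and liver parenchyma, rose (log2 fold change 3.91 ± 0.66 (SE), edgeR adjusted p = 0.000276), as did the protease inhibitor *Slpi* (log2 fold change 3.64 ± 0.77 (SE), edgeR adjusted p = 0.0031) and the acute phase gene *Saa1* (log2 fold change 4.49 ± 1.11 (SE), edgeR adjusted p = 0.0106). *Slpi* was 2.87, adjusted p = 0.0169 without WD replicate 4, and with WD replicates 1 to 3 alone it was 1.76, adjusted p = 0.209 and did not pass. Of the 12 hepatocyte markers *Cyp2e1* alone passed (log2 fold change 2.23 ± 0.72 (SE), edgeR adjusted p = 0.0493), and *Alb* did not (log2 fold change 0.61 ± 0.39 (SE), edgeR adjusted p = 0.339). *Mup20* (-0.89, adjusted p = 0.216) and *Serpina1c* (-0.10, adjusted p = 0.927) had negative edgeR log2 fold changes. The remaining markers were positive and did not pass, among them *Apoa2* (1.30), *Ttr* (0.96) and *Apoa1* (0.90). With the hepatocyte score as a covariate *Apoa4* (3.45, adjusted p = 7.62e-05) and *Saa1* (4.15, adjusted p = 0.0215) still passed. *Saa1* has near-identical copies among which reads may be split, and 1 WD sample set much of its rise. Leaving out 1 sample ended the call of *Saa1* without WD replicate 6 (3.04 on the log2 scale, adjusted p = 0.0668). *Cyp2e1* lost its call in 9 of the 12 fits that each left out 1 sample (all but those without SD replicate 5 or WD replicates 1 or 4; log2 fold changes 1.69 to 2.38). *Saa1* was 5.27, adjusted p = 0.00974 without SD replicate 6. *Saa1* (3.01, adjusted p = 0.221) and *Cyp2e1* (1.21, adjusted p = 0.462) did not pass with the stress covariate.

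Lipid droplet genes rose in number. Of the 20 genes of lipid droplets and triglyceride turnover, 9 rose and 11 did not pass (median log2 fold change 0.41). *Plin2*, the main coat protein of droplets in macs, ran from 265 to 404 CPM (median 328) in the SD samples and from 497 to 669 CPM (median 563) in the WD samples, without overlap (log2 fold change 0.80 ± 0.12 (SE), edgeR adjusted p = 7.51e-05). *Cidea*, which joins small droplets into large ones, had no counts in any SD sample and 17, 35, 23, 17, 35 and 15 counts in WD replicates 1 to 6, at least 51.8-fold more than the limit of 3 counts over the SD group (edgeR adjusted p = 0.0047). *Cidec*, a relative with the same function, had 0, 0, 0, 0, 1 and 5 counts in SD and 30, 36, 86, 52, 44 and 10 in WD (edgeR adjusted p = 0.00577, and 0.00458 without SD replicate 6, which held 5 of the 6 SD counts). *Plin4* had none in SD and 5, 1, 13, 15, 3 and 2 counts in WD, at least 14.2-fold more (edgeR adjusted p = 0.0196). Counts of *Plin4* were near 0 in some WD samples. With the stress covariate 2 of the 20 genes passed, with WD replicates 1 to 3 alone 3, without SD replicates 1 and 2 also 3, and in the fits that each left out 1 sample 4 to 8. *Plin2* kept its call with the covariate (0.69, adjusted p = 0.00469) and with WD replicates 1 to 3 alone (0.74, adjusted p = 0.00424). *Cidec* (4.09, adjusted p = 0.0666) and *Plin4* (adjusted p = 0.129) did not pass with the stress covariate.

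Among 24 genes of fatty acid oxidation and PPAR targets 8 rose and 16 did not pass (median log2 fold change 0.23). *Angptl4*, an inhibitor of lipoprotein lipase induced by fatty acids, ran from 3.55 to 12.8 CPM (median 6.70) in the SD samples and from 20.7 to 44.5 CPM (median 30.6) in the WD samples, without overlap (log2 fold change 2.18 ± 0.30 (SE), edgeR adjusted p = 1.63e-05). *Ppara*, the nuclear receptor of fatty acid oxidation, stayed low and ran from 0.158 to 1.23 CPM (median 0.805) in the SD samples and from 2.76 to 13.6 CPM (median 4.16) in the WD samples (log2 fold change 2.94 ± 0.72 (SE), edgeR adjusted p = 0.00991). The fatty acid transporter *Slc27a1* rose as well (0.75, adjusted p = 0.00634; log2 fold change, edgeR). *Ppara* is also a hepatocyte gene and had its highest value in WD replicate 3, which had the highest hepatocyte score; with that score as a covariate *Ppara* moved to 2.07, adjusted p = 0.00443. The count of rises in this list was 1 with the stress covariate, 2 with WD replicates 1 to 3 alone, 2 without SD replicates 1 and 2, and 3 to 7 in the fits without 1 sample. *Ppara* (1.85, adjusted p = 0.161) and *Slc27a1* (0.70, adjusted p = 0.0536) did not pass with the stress covariate.

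Of 13 LXR targets 2 rose and 1 fell (median log2 fold change 0.05). *Scd1*, the desaturase that makes monounsaturated fatty acids, ran from 281 to 614 CPM (median 475) in the SD samples and from 751 to 1863 CPM (median 976) in the WD samples (log2 fold change 1.30 ± 0.38 (SE), edgeR adjusted p = 0.0265), and its relative *Scd2* rose less (log2 fold change 0.58 ± 0.17 (SE), edgeR adjusted p = 0.0325). *Smpdl3a*, a phosphodiesterase, fell (log2 fold change -0.35 ± 0.09 (SE), edgeR adjusted p = 0.0165) with a gap between the groups. The cholesterol exporter *Abca1* was 0.43 on the log2 scale and did not pass (edgeR adjusted p = 0.206). *Scd1* lost its call in 3 of the 12 fits that each left out 1 sample (SD replicates 1 or 2 or WD replicate 3; log2 fold changes 1.10 to 1.21). *Scd2* lost its call in 8 of the 12 fits that each left out 1 sample (all but those without SD replicates 4 or 5 or WD replicates 3 or 5; log2 fold changes 0.47 to 0.57). LXR target rises and falls numbered 0 and 1 with the stress covariate, 1 and 0 with WD replicates 1 to 3 alone, and, without SD replicates 1 and 2, 0 and 1. *Scd1* (0.60, adjusted p = 0.451) and *Scd2* (0.39, adjusted p = 0.312) did not pass with the stress covariate. Of 25 sterol synthesis and SREBP2 targets 1 rose, and 0 under each of the 3 settings (median -0.11). *Hmgcs1*, at the start of the pathway, did not pass (0.28, adjusted p = 0.193; log2 fold change, edgeR).

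Of 43 lysosomal genes 6 rose and 3 fell (median log2 fold change 0.06), and with total-count scaling 10 rose and 1 fell. *Ctsd*, the aspartic protease cathepsin D, ran from 2117 to 3310 CPM (median 2423) in the SD samples and from 3160 to 4705 CPM (median 4002) in the WD samples; the groups overlapped slightly (log2 fold change 0.60 ± 0.15 (SE), edgeR adjusted p = 0.012). *Gla*, the alpha-galactosidase that splits glycolipids, ran from 13.2 to 24.6 CPM (median 18.4) in the SD samples and from 28.5 to 53.9 CPM (median 39.96) in the WD samples, without overlap (log2 fold change 1.07 ± 0.19 (SE), edgeR adjusted p = 0.000541). *Gusb*, the beta-glucuronidase, rose (0.49, adjusted p = 0.00582; log2 fold change, edgeR). *Ctss*, the cathepsin S that trims the invariant chain of MHC class II, fell (log2 fold change -0.32 ± 0.08 (SE), edgeR adjusted p = 0.00893), and its WD samples all lay below the SD samples. Lysosomal rises and falls numbered 3 and 2 with the stress covariate, 3 and 2 with WD replicates 1 to 3 alone, and, without SD replicates 1 and 2, 4 and 2. *Ctsd* (0.47, adjusted p = 0.137), *Gusb* (0.40, adjusted p = 0.0817) and *Ctss* (-0.31, adjusted p = 0.0549) did not pass with the stress covariate. The promoters of *Ctsd* and *Gla* are shown because both hold the palindromic E box TCACGTGA, the letters of the site that TFEB-family factors bind. It was sought on 250 bases upstream of the start; being a palindrome it reads the same on both strands. These letters stood in 5 of the 33 lysosomal genes with a promoter in RefSeq (15.2%: *Atp6v1a*, *Ctsa*, *Ctsd*, *Gla* and *Mcoln1*) and in 0.907% of all 27025 promoters. Of the 5, *Atp6v1a* (0.17, adjusted p = 0.631), *Ctsa* (adjusted p = 0.998) and *Mcoln1* (0.13, adjusted p = 0.454) did not pass (edgeR log2 fold changes). *Cd63*, *Atp6v0d2*, *Gusb* and *Psap* rose and were not among the 5. Any part of the box in the rises was not tested. In the RefSeq sequences (GRCm38.p6) capitals mark the E box.
Ctsd promoter, chr7:142387828-142388077, minus strand: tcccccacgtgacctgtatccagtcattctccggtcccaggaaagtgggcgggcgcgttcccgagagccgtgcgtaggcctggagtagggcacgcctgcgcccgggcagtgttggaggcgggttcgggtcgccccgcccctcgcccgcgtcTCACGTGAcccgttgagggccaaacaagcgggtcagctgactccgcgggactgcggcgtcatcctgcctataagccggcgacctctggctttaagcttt
Gla promoter, chrX:134601006-134601255, minus strand: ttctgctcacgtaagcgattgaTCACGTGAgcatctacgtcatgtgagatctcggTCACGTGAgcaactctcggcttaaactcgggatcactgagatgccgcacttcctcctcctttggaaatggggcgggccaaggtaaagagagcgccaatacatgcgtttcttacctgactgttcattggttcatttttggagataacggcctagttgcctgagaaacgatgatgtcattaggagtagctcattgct
The box starts 99 bases before the start site in *Ctsd* and 228 and 195 bases before it in *Gla*.

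KC identity genes fell in a few cases. Of 26 members 4 fell and the other 22 did not pass, with a median log2 fold change of -0.20. *Cd207*, the lectin langerin (chromosome 6, 83671215 to 83677857), ran from 348 to 1247 CPM (median 634) in the SD samples and from 82.6 to 239 CPM (median 127) in the WD samples. All WD samples lay below all SD samples (log2 fold change -2.23 ± 0.32 (SE), edgeR adjusted p = 3.14e-05). The BMP-induced transcriptional regulators *Id3* (log2 fold change -0.85 ± 0.19 (SE), edgeR adjusted p = 0.00449) and *Id1* (log2 fold change -1.24 ± 0.37 (SE), edgeR adjusted p = 0.0334) fell with overlapping groups, and so did *Spic*, the factor of iron-recycling macs (log2 fold change -0.43 ± 0.14 (SE), edgeR adjusted p = 0.0496). *Id1* lost its call in 7 of the 12 fits that each left out 1 sample (all but those without SD replicates 1, 2, 3 or 6 or WD replicate 5, log2 fold changes -1.24 to -1.05). With the naming scheme as a covariate *Id1* did not pass (-0.96, edgeR adjusted p = 0.135). *Spic* lost its call in 9 of the 12 fits that each left out 1 sample (all but those without SD replicate 5 or WD replicates 2 or 4; log2 fold changes -0.46 to -0.34). KC identity rises and falls numbered 0 and 1 with the stress covariate, 0 and 2 with WD replicates 1 to 3 alone, and, without SD replicates 1 and 2, 0 and 3. The endothelial gene *Bmp2*, a ligand of this pathway, was lower in WD as well (log2 fold change -1.28 ± 0.38 (SE), edgeR adjusted p = 0.0327), as were the endothelial markers *Dnase1l3* (-0.93) and *Pecam1* (-0.58), and the part of these cells in the falls was not tested. Of the 10 endothelial markers only these 3 passed. The others included *Clec4g* (-1.15) and *Kdr* (-1.14) as well as *Stab2* (-0.055), *Cdh5* (-0.17) and *Lyve1* (0.031) (edgeR log2 fold changes). *Bmp2* lost its call in 5 of the 12 fits that each left out 1 sample (SD replicate 6 or WD replicates 1, 2, 4 or 5; log2 fold changes -1.29 to -1.06). *Pecam1* lost its call in 3 of the 12 fits that each left out 1 sample (SD replicate 6 or WD replicates 4 or 6; log2 fold changes -0.54 to -0.49). *Id3* (-0.25, adjusted p = 0.0824), *Id1* (-0.10, adjusted p = 0.861), *Spic* (-0.38, adjusted p = 0.209), *Bmp2* (-0.95, adjusted p = 0.251), *Dnase1l3* (-0.82, adjusted p = 0.126) and *Pecam1* (-0.56, adjusted p = 0.108) did not pass with the stress covariate.

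*Timd4* ran from 885 to 1127 CPM (median 1051) in the SD samples and from 547 to 885 CPM (median 749) in the WD samples and *Vsig4* from 3660 to 4117 CPM (median 3966) in the SD samples and from 2772 to 3441 CPM (median 3199) in the WD samples. The WD samples of *Vsig4* lay below the SD samples without overlap and those of *Timd4* met them at 885 CPM, and neither passed in the fit over all 35 samples (-0.49, adjusted p = 0.333 and -0.31, adjusted p = 0.414). With the spread taken from the 12 samples alone both passed (-0.49, adjusted p = 0.00984 and -0.32, adjusted p = 0.00681; edgeR log2 fold changes). TIM4 was an antigen of the sort. *Marco* ran from 1179 to 4081 CPM (median 1885) in the SD samples and from 462 to 2116 CPM (median 1177) in the WD samples and did not pass (log2 fold change -0.80 ± 0.55 (SE), edgeR adjusted p = 0.385), nor did the growth factor receptor *Csf1r* (log2 fold change -0.25 ± 0.10 (SE), edgeR adjusted p = 0.103).

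Of 23 C-type lectins 2 rose and 3 fell (8.70% up and 13% down; median 0.01). *Clec4a1* (-0.66, adjusted p = 0.00823) and *Clec4a3* (-0.35, adjusted p = 0.00563), receptors of the Dcir family, fell, while *Clec7a*, the beta-glucan receptor Dectin-1, rose (log2 fold change 0.66 ± 0.20 (SE), edgeR adjusted p = 0.031). The adjusted p went over 0.05 for *Clec7a* without SD replicate 6 (0.54 on the log2 scale, adjusted p = 0.0732) and without WD replicate 6 (0.49 on the log2 scale, adjusted p = 0.115). C-type lectin rises and falls numbered 0 and 2 with the stress covariate, 0 and 1 with WD replicates 1 to 3 alone, and, without SD replicates 1 and 2, 1 and 3. Scavenger receptors changed in 1 of 15 tested, *Cd36*, in this fit and under the 3 settings (6.67% up and 0% down; median -0.06). Of 18 genes of apoptotic cell uptake tested 1 rose and 2 fell (5.56% up and 11.1% down; median -0.16): *Cd300lb*, a receptor for phosphatidylserine, rose without overlap (log2 fold change 0.99 ± 0.17 (SE), edgeR adjusted p = 0.000318), and *Gas6*, the bridging ligand of the AXL and MERTK receptors (log2 fold change -0.70 ± 0.22 (SE), edgeR adjusted p = 0.0448), and *C1qa*, a chain of C1q (log2 fold change -0.36 ± 0.11 (SE), edgeR adjusted p = 0.038), fell. *Gas6* lost its call in 9 of the 12 fits that each left out 1 sample (all but those without SD replicates 1 or 3 or WD replicate 3; log2 fold changes -0.72 to -0.57). *C1qa* lost its call in 8 of the 12 fits that each left out 1 sample (all but those without SD replicates 1, 2 or 3 or WD replicate 5; log2 fold changes -0.36 to -0.33). Uptake gene rises and falls numbered 1 and 0 with the stress covariate, 1 and 0 with WD replicates 1 to 3 alone, and, without SD replicates 1 and 2, 1 and 0. *Clec4a1* (-0.57, adjusted p = 0.0706), *Clec7a* (0.51, adjusted p = 0.216), *Gas6* (-0.59, adjusted p = 0.217) and *C1qa* (-0.37, adjusted p = 0.111) did not pass with the stress covariate.

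Complement genes had 2 rises and 3 falls among 23 (8.70% up and 13% down; median -0.23). *Cd55*, which breaks up C3 convertases on the cell surface, ran from 81.6 to 489.6 CPM (median 152) in the SD samples and from 22.3 to 88.6 CPM (median 37.9) in the WD samples (log2 fold change -1.97 ± 0.49 (SE), edgeR adjusted p = 0.0113). *Cr1l*, another regulator of C3, fell within narrow ranges (95.03 to 104 CPM (median 99.5) in the SD samples and from 78.7 to 89.5 CPM (median 82.1) in the WD samples; log2 fold change -0.26 ± 0.06 (SE), edgeR adjusted p = 0.004). *Cfd*, the gene of factor D and a typical fat cell product, had no SD counts and 14, 5, 68, 1, 50 and 20 counts in WD replicates 1 to 6, at least 57.6-fold more than the limit of 3 counts over the SD group (edgeR adjusted p = 0.0374). *Cfd* lost its call in 9 of the 12 fits that each left out 1 sample (all but those without WD replicates 1, 2 or 4). Complement gene rises and falls numbered 1 and 1 with the stress covariate, 1 and 1 with WD replicates 1 to 3 alone, and, without SD replicates 1 and 2, 1 and 2. *Cd55* (-1.72, adjusted p = 0.0705) and *Cfd* (adjusted p = 0.131) did not pass with the stress covariate.

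Paired immune receptors, which set activation thresholds of myeloid cells, fell more often than they rose: 9 of 27 fell and 4 rose (median -0.19). *Pilra* (525 to 626 CPM (median 570.0) in the SD samples and from 381 to 464 CPM (median 412) in the WD samples; log2 fold change -0.44 ± 0.08 (SE), edgeR adjusted p = 0.000302) and the related *Pilrb1* (-0.57, adjusted p = 5.33e-05) and *Pilrb2* (-0.60, adjusted p = 4.99e-06) fell without overlap (log2 fold changes, edgeR); the near-identical *Pilrb1* and *Pilrb2* may share reads. *Lair1*, a collagen receptor, fell with groups that met at their edges (log2 fold change -0.45 ± 0.07 (SE), edgeR adjusted p = 0.000129). Paired receptor rises and falls numbered 2 and 6 with the stress covariate, 1 and 6 with WD replicates 1 to 3 alone, and, without SD replicates 1 and 2, 2 and 5. Among 10 Fc receptor genes 2 fell and the others did not pass (median -0.21): *Fcgrt*, which recycles IgG (log2 fold change -0.47 ± 0.12 (SE), edgeR adjusted p = 0.0121), and the shared signalling chain *Fcer1g* (log2 fold change -0.28 ± 0.08 (SE), edgeR adjusted p = 0.0291). *Fcer1g* lost its call in 5 of the 12 fits that each left out 1 sample (SD replicates 1 or 4 or WD replicates 3, 4 or 6; log2 fold changes -0.28 to -0.26). Fc receptor rises and falls numbered 0 and 1 with the stress covariate, 0 and 0 with WD replicates 1 to 3 alone, and, without SD replicates 1 and 2, 0 and 1. Of 17 tetraspanins 2 rose, *Cd63* and *Cd9*, and 2 fell (11.8% up and 11.8% down; median -0.21). Tetraspanin rises and falls numbered 2 and 0 with the stress covariate, 2 and 0 with WD replicates 1 to 3 alone, and, without SD replicates 1 and 2, 2 and 4. *Fcer1g* (-0.30, adjusted p = 0.0777) did not pass with the stress covariate.

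Most antigen presentation genes fell. Of 26 members 15 fell and the other 11 did not pass, with a median log2 fold change of -0.40; 25 were negative. *H2-Ab1*, the beta chain of MHC class II (chromosome 17, 34257689 to 34269419), ran from 2529 to 7467 CPM (median 4707) in the SD samples and from 1279 to 3231 CPM (median 1926) in the WD samples. The groups overlapped, with SD replicates spread over a wide range (log2 fold change -1.15 ± 0.27 (SE), edgeR adjusted p = 0.00646). *Cd74*, the invariant chain, ran from 8051 to 12870 CPM (median 11260) in the SD samples and from 4209 to 8773 CPM (median 5620) in the WD samples (log2 fold change -0.85 ± 0.19 (SE), edgeR adjusted p = 0.00608). *H2-Aa* (-1.08, adjusted p = 0.00462) and *H2-Eb1* (-1.07, adjusted p = 0.0144) fell by similar amounts (log2 fold changes, edgeR); *Cd74* and these were chosen after their values were seen. The class II transactivator *Ciita* did not pass (log2 fold change -0.06 ± 0.26 (SE), edgeR adjusted p = 0.916).

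The class I side fell by less and more evenly. *B2m*, the light chain of MHC class I, ran from 4741 to 5574 CPM (median 5147) in the SD samples and from 3246 to 4238 CPM (median 3832) in the WD samples, without overlap (log2 fold change -0.44 ± 0.08 (SE), edgeR adjusted p = 0.000439). *H2-D1* (-0.40, adjusted p = 0.000614) and *H2-K1* (-0.35, adjusted p = 0.0025), class I heavy chains, fell, as did the immunoproteasome subunits *Psmb8* (-0.43, adjusted p = 0.00253), *Psmb9* (-0.56, adjusted p = 0.00192) and *Psmb10* (-0.38, adjusted p = 0.00295), which cut peptides for class I (log2 fold changes, edgeR). With the stress covariate 7 genes of the list fell: class I genes such as *B2m* (-0.48, adjusted p = 0.00302) kept their call, and class II genes such as *H2-Ab1* (-0.83, adjusted p = 0.0909) did not. With WD replicates 1 to 3 alone 13 fell, without SD replicates 1 and 2 12, and 14 to 16 in the fits without 1 sample. *Cd74* (-0.58, adjusted p = 0.107), *H2-Aa* (-0.79, adjusted p = 0.078) and *H2-Eb1* (-0.76, adjusted p = 0.154) did not pass with the stress covariate.

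*H2-Ob*, a class II chain typical of B cells, fell (log2 fold change -1.36 ± 0.35 (SE), edgeR adjusted p = 0.0139), and *Cd79b*, a chain of the B cell receptor, fell too (log2 fold change -1.29 ± 0.30 (SE), edgeR adjusted p = 0.0078). Of the 8 B cell markers it was the only one that passed. *Ms4a1*, another B cell marker, was at most 3.15 CPM in all 12 samples. *H2-Ob* (-1.16, adjusted p = 0.105) did not pass with the stress covariate. For context, the mean level of *H2-Ab1* was 2118 ± 686 CPM in the WD ResKCs (mean ± SD, n = 6), 5799 ± 1102 CPM in the moKCs (n = 5) and 8975 ± 1782 CPM in the CLEC4F- macs (n = 6), without a test.

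The promoters of *H2-Aa* and *H2-Eb1* are shown because class II genes carry a conserved Y box, the letters CTGATTGG on either strand, read by the factor NF-Y. Among 19 antigen presentation genes with a promoter in RefSeq 7 held these letters (36.8%: *H2-Aa*, *H2-D1*, *H2-Eb1*, *H2-Oa*, *H2-T23*, *Psmb9* and *Tap1*), against 4.43% of all promoters. Of the 7, *H2-Oa* (-0.22, adjusted p = 0.885) and *Tap1* (-0.33, adjusted p = 0.12) did not pass (edgeR log2 fold changes). Capitals mark the Y box and, in *H2-Aa* alone of the 19, the cyclic AMP response element TGACGTCA, which stood in 1.77% of all promoters.
H2-Aa promoter, chr17:34287824-34288073, minus strand: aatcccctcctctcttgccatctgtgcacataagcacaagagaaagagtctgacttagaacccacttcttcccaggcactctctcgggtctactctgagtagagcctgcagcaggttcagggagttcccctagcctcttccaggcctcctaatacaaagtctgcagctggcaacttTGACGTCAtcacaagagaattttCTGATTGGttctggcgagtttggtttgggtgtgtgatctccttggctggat
H2-Eb1 promoter, chr17:34305617-34305866, plus strand: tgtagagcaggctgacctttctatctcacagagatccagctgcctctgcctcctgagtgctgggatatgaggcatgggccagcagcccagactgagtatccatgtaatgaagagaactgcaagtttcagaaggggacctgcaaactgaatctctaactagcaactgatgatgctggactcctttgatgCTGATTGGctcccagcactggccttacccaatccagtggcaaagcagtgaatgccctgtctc
The Y box starts 51 bases before the start site in *H2-Aa* and 62 bases before it in *H2-Eb1*. A match is a description of letters only.

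Immediate-early genes, which are switched on within minutes by growth factors, stress or tissue digestion, had the lowest median of all lists. Of 25 members 13 fell and the other 12 did not pass, all 25 were negative, and the median was -1.43. *Fos* ran from 750.5 to 3525 CPM (median 2391) in the SD samples and from 195 to 1174 CPM (median 352) in the WD samples (log2 fold change -2.24 ± 0.54 (SE), edgeR adjusted p = 0.00888). *Dusp1*, a phosphatase that shuts off MAP kinases, ran from 781 to 3952 CPM (median 2287) in the SD samples and from 255 to 1224 CPM (median 459.7) in the WD samples (log2 fold change -2.10 ± 0.49 (SE), edgeR adjusted p = 0.00665). For both genes the top WD sample was replicate 5 and the lowest SD sample replicate 1, and only these brought the groups to overlap. *Zfp36*, which destabilizes cytokine mRNAs (-1.69, adjusted p = 0.0169), the flow-responsive factor *Klf2* (-1.46, adjusted p = 0.00462), the GTPase *Rhob* (-1.07, adjusted p = 0.005) and the apoptosis regulator *Ier3* (-1.78, adjusted p = 0.00741) fell too (log2 fold changes, edgeR), with *Egr1* (-2.22, adjusted p = 0.0308) and *Jun* (-1.43, adjusted p = 0.0378). *Egr1* lost its call in 7 of the 12 fits that each left out 1 sample (all but those without SD replicates 1, 2, 3 or 6 or WD replicate 5; log2 fold changes -2.27 to -1.90). *Jun* lost its call in 9 of the 12 fits that each left out 1 sample (all but those without SD replicates 1 or 6 or WD replicate 5; log2 fold changes -1.47 to -1.28). The list's falls numbered 2, with 1 rise, under the stress covariate, some of whose genes are members, 7 with WD replicates 1 to 3 alone, 16 without SD replicates 1 and 2, 7 to 17 in the fits without 1 sample, and 3 with the naming scheme as a covariate. In that last fit *Fos* (-1.77, adjusted p = 0.0657), *Zfp36* (-1.28, adjusted p = 0.1), *Ier3* (-1.34, adjusted p = 0.0528), *Egr1* (-1.73, adjusted p = 0.147) and *Jun* (-0.96, adjusted p = 0.207) did not pass. *Dusp1* (-1.71, adjusted p = 0.0485), *Klf2* (-1.22, adjusted p = 0.029) and *Rhob* (-0.94, adjusted p = 0.024) did (edgeR log2 fold changes). *Zfp36* (-0.22, adjusted p = 0.403), *Klf2* (-0.49, adjusted p = 0.118), *Rhob* (-0.32, adjusted p = 0.143), *Ier3* (-0.46, adjusted p = 0.145), *Egr1* (0.14, adjusted p = 0.778) and *Jun* (0.04, adjusted p = 0.918) did not pass with the stress covariate. Among heat shock genes 1 of 14 fell, *Dnajb4*, a co-chaperone (log2 fold change -0.58 ± 0.18 (SE), edgeR adjusted p = 0.0455), the median was 0.04, and *Hspa1a* did not pass (log2 fold change -1.61 ± 0.55 (SE), edgeR adjusted p = 0.0622). *Dnajb4* lost its call in 8 of the 12 fits that each left out 1 sample (all but those without SD replicates 1 or 2 or WD replicates 2 or 4; log2 fold changes -0.60 to -0.42). *Dnajb4* (-0.30, adjusted p = 0.452) did not pass with the stress covariate. Heat shock rises and falls numbered 0 and 0 with the stress covariate, 0 and 1 with WD replicates 1 to 3 alone, and, without SD replicates 1 and 2, 0 and 3.

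The cyclic AMP response element TGACGTCA, also a palindrome, stood in 4 of 21 immediate-early promoters (19.0%: *Btg2*, *Dusp1*, *Maff* and *Ppp1r15a*), again against 1.77% of all. Of the 4, *Maff* (-0.10, adjusted p = 0.901) and *Ppp1r15a* (-1.80, adjusted p = 0.0534) did not pass (edgeR log2 fold changes). The promoters of *Dusp1* and of *Btg2*, an antiproliferative gene that fell (log2 fold change -1.91 ± 0.51 (SE), edgeR adjusted p = 0.0174) and was chosen after its values were seen, are shown with the element in capitals. *Btg2* (-0.24, adjusted p = 0.33) did not pass with the stress covariate.
Dusp1 promoter, chr17:26508473-26508722, minus strand: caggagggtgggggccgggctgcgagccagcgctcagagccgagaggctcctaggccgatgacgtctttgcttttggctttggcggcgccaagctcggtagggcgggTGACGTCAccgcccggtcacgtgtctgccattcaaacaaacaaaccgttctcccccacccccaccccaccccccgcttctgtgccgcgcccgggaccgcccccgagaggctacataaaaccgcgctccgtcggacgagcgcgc
Btg2 promoter, chr1:134079156-134079405, minus strand: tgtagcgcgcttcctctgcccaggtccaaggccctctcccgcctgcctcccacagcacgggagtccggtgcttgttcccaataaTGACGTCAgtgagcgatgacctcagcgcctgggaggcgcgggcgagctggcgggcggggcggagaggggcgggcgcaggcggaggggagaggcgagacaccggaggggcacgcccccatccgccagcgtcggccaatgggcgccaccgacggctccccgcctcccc
It starts 143 bases before the start site in *Dusp1* and 166 bases before it in *Btg2*.

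Most cytokine genes that passed fell. Of 27 inflammatory cytokines and NF-kB targets tested 7 fell and 1, *Il1rn*, rose (median log2 fold change -0.36). *Il1b*, the gene of interleukin-1 beta, ran from 416 to 1172 CPM (median 783) in the SD samples and from 123 to 428 CPM (median 178) in the WD samples; WD replicate 5 alone reached the SD range (log2 fold change -1.92 ± 0.53 (SE), edgeR adjusted p = 0.0215). *Il6* ran from 6.35 to 34.9 CPM (median 19.03) in the SD samples and from 1.53 to 8.77 CPM (median 2.69) in the WD samples (log2 fold change -2.45 ± 0.74 (SE), edgeR adjusted p = 0.0337), and *Il10* from 10.2 to 41.5 CPM (median 21.1) in the SD samples and from 4.79 to 11.8 CPM (median 6.75) in the WD samples (log2 fold change -1.75 ± 0.40 (SE), edgeR adjusted p = 0.00549). *Socs3*, an inhibitor of cytokine signalling (-1.88, adjusted p = 0.0195), the growth factor *Csf1* (-1.27, adjusted p = 0.0203) and the costimulatory receptor *Cd40* (-0.58, adjusted p = 0.0103) fell as well (log2 fold changes, edgeR). *Tnf* had a lower median in WD and did not pass (log2 fold change -1.61 ± 0.61 (SE), edgeR adjusted p = 0.0921). The call was lost for *Il1b* without WD replicate 4 (-1.81 on the log2 scale, adjusted p = 0.0514), for *Csf1* without SD replicate 6 (-1.03 on the log2 scale, adjusted p = 0.0629). *Il6* lost its call in 8 of the 12 fits that each left out 1 sample (all but those without SD replicates 1, 2 or 6 or WD replicate 5; log2 fold changes -2.50 to -2.22). With the stress covariate 1 member fell and 2 rose, with WD replicates 1 to 3 alone 2 fell and 1 rose, and without SD replicates 1 and 2 6 fell and 1 rose. Under the covariate *Il1b* was -0.37, adjusted p = 0.54, while *Il1rn* stayed up (1.76, adjusted p = 1.2e-05). *Il6* (-0.55, adjusted p = 0.53), *Il10* (-0.57, adjusted p = 0.258), *Socs3* (-0.31, adjusted p = 0.61) and *Csf1* (-0.80, adjusted p = 0.304) did not pass with the stress covariate. With the naming scheme as a covariate *Il1b* (-1.36, adjusted p = 0.131), *Il6* (-1.62, adjusted p = 0.2), *Socs3* (-1.36, adjusted p = 0.116) and *Csf1* (-1.16, adjusted p = 0.0512) did not pass. *Il10* (-1.59, adjusted p = 0.023) and *Cd40* (-0.56, adjusted p = 0.0266) did (edgeR log2 fold changes).

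Among 22 chemokines 3 rose and 5 fell (median -0.24). *Cxcl13*, the attractant of B cells (chromosome 5, 95956951 to 95961068), ran from 402 to 1590 CPM (median 559.7) in the SD samples and from 64.3 to 253 CPM (median 97.1) in the WD samples, without overlap (log2 fold change -2.56 ± 0.64 (SE), edgeR adjusted p = 0.0115). *Ccl9*, an attractant of myeloid cells, went the other way and ran from 10.9 to 28.6 CPM (median 16) in the SD samples and from 65.99 to 191 CPM (median 94.7) in the WD samples, without overlap (log2 fold change 2.57 ± 0.35 (SE), edgeR adjusted p = 1.5e-05). *Ccl3* (-1.91, adjusted p = 0.0103), *Ccl7* (-1.69, adjusted p = 0.024) and *Cxcl12* (-1.07, adjusted p = 0.0363) fell, and *Ccl2*, the monocyte attractant, did not pass (-1.06, adjusted p = 0.0998; log2 fold changes, edgeR). No call was left for *Ccl7* without WD replicate 1 (-1.60 on the log2 scale, adjusted p = 0.0503) and without WD replicate 2 (-1.60 on the log2 scale, adjusted p = 0.0516). *Cxcl12* lost its call in 7 of the 12 fits that each left out 1 sample (all but those without SD replicates 1, 2 or 3 or WD replicates 5 or 6; log2 fold changes -1.06 to -0.92). Chemokine rises and falls numbered 4 and 0 with the stress covariate, 2 and 2 with WD replicates 1 to 3 alone, and, without SD replicates 1 and 2, 1 and 5. *Cxcl13* (-1.50, adjusted p = 0.141), *Ccl3* (-0.58, adjusted p = 0.165), *Ccl7* (-0.28, adjusted p = 0.637) and *Cxcl12* (-0.57, adjusted p = 0.373) did not pass with the stress covariate.

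**Figure D3:**
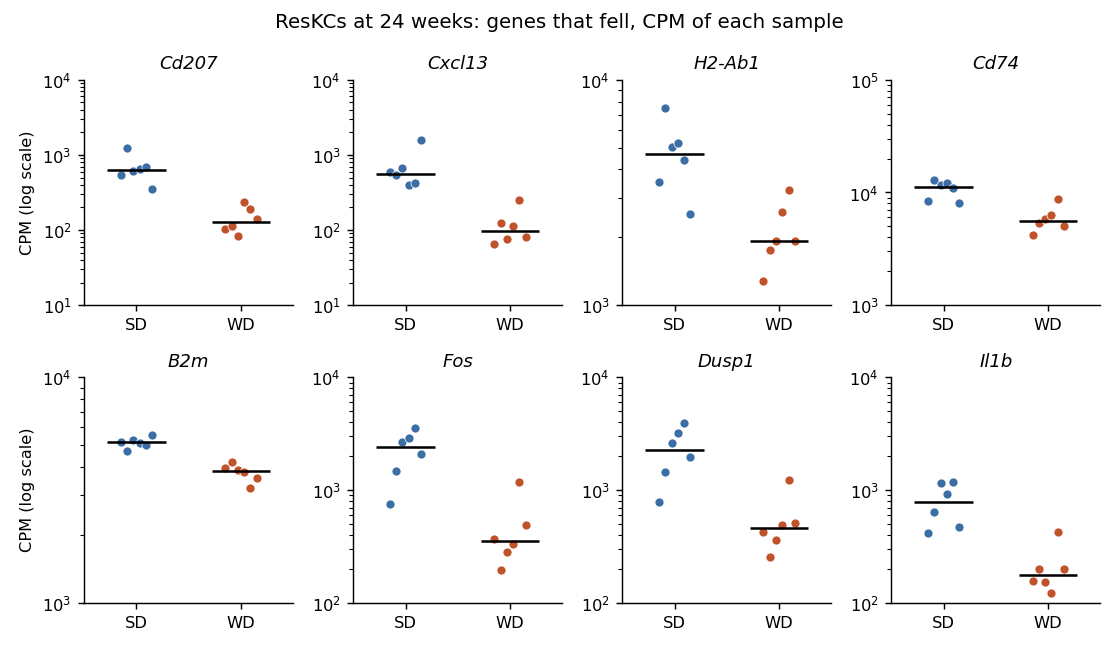
CPM (log axis) of 8 genes that fell, in each SD (blue) and WD (orange) sample of 24-week ResKCs; bars are medians of 6 samples. *Cd207*, *Cxcl13* and *B2m* show no overlap, and in *Fos*, *Dusp1* and *Il1b* a single high WD sample reaches into the SD range.

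Pattern recognition genes had 4 falls and 1 rise among 26 (median -0.07). *Cd14*, the endotoxin co-receptor, ran from 429.6 to 1046 CPM (median 810.2) in the SD samples and from 249.7 to 576 CPM (median 313) in the WD samples (log2 fold change -1.20 ± 0.26 (SE), edgeR adjusted p = 0.00409). *Tlr2*, the receptor of bacterial lipopeptides, ran from 267 to 349.9 CPM (median 283) in the SD samples and from 174 to 237 CPM (median 208) in the WD samples, without overlap (log2 fold change -0.52 ± 0.10 (SE), edgeR adjusted p = 0.00164). *Ly96*, the partner of TLR4 (-0.38, adjusted p = 0.0113), and the formyl peptide receptor *Fpr2* (-0.87, adjusted p = 0.00785) completed the falls (log2 fold changes, edgeR). As many falls, 4, were counted in each of the 12 fits without 1 sample. Pattern recognition rises and falls numbered 0 and 2 with the stress covariate, 0 and 2 with WD replicates 1 to 3 alone, and, without SD replicates 1 and 2, 0 and 3. Among interferon-stimulated genes 2 of 27 rose (7.41% up and 0% down; median 0.09), *Mx1* (log2 fold change 0.84 ± 0.27 (SE), edgeR adjusted p = 0.0484) and *Ifi44* (log2 fold change 1.01 ± 0.25 (SE), edgeR adjusted p = 0.00961). Leaving out 1 sample ended the call of *Ifi44* without WD replicate 4 (0.68 on the log2 scale, adjusted p = 0.0521). *Mx1* lost its call in 8 of the 12 fits that each left out 1 sample (all but those without SD replicates 1, 2 or 3 or WD replicate 5; log2 fold changes 0.68 to 0.88). Interferon gene rises and falls numbered 0 and 0 with the stress covariate, 0 and 0 with WD replicates 1 to 3 alone, and, without SD replicates 1 and 2, 5 and 0. *Cd14* (-0.41, adjusted p = 0.124), *Tlr2* (-0.35, adjusted p = 0.0625), *Mx1* (0.65, adjusted p = 0.239) and *Ifi44* (0.76, adjusted p = 0.136) did not pass with the stress covariate.

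Of 32 cell cycle genes 13 rose and all had positive fold changes, with a median of 0.85. *Mki67*, the proliferation marker, ran from 17.3 to 29.8 CPM (median 21.9) in the SD samples and from 28.8 to 67.4 CPM (median 47.5) in the WD samples (log2 fold change 1.04 ± 0.25 (SE), edgeR adjusted p = 0.00826), and 1 WD sample lay inside the SD range. *Aurkb*, a kinase of chromosome segregation, ran from 13.4 to 19.6 CPM (median 15.8) in the SD samples and from 20.7 to 36.95 CPM (median 29.4) in the WD samples (log2 fold change 0.85 ± 0.21 (SE), edgeR adjusted p = 0.00991), and *Tpx2*, a spindle protein, from 7.21 to 13.2 CPM (median 9.52) in the SD samples and from 17.04 to 25.8 CPM (median 20.4) in the WD samples (log2 fold change 1.06 ± 0.26 (SE), edgeR adjusted p = 0.0095), both without overlap. *Cenpf* (1.69, adjusted p = 0.00836) and *Plk1* (1.20, adjusted p = 0.0194) rose, and *Top2a* (0.92, adjusted p = 0.0622) and *Cdk1* (0.45, adjusted p = 0.231) did not pass (log2 fold changes, edgeR). The count of 13 became 4 with the stress covariate, 1 with WD replicates 1 to 3 alone, 9 without SD replicates 1 and 2 and 6 to 15 in the fits without 1 sample, lowest without SD replicate 4 or WD replicate 4. *Mki67* was 1.12, adjusted p = 0.0254 with WD replicates 1 to 3 alone and 1.05, adjusted p = 0.0433 with the covariate. *Aurkb* (0.77, adjusted p = 0.0685) and *Plk1* (1.32, adjusted p = 0.0552) did not pass with the stress covariate.

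Glycolysis and hypoxia genes rose in 10 of 23 cases (median 0.29). *Pfkl*, a phosphofructokinase, ran from 60.1 to 79.2 CPM (median 66.03) in the SD samples and from 81.95 to 121 CPM (median 104) in the WD samples, without overlap (log2 fold change 0.62 ± 0.09 (SE), edgeR adjusted p = 4.08e-05). *Ldha*, the lactate dehydrogenase, ran from 544 to 661 CPM (median 593) in the SD samples and from 690.1 to 912 CPM (median 822) in the WD samples, also without overlap (log2 fold change 0.44 ± 0.10 (SE), edgeR adjusted p = 0.00382). The lactate exporter *Slc16a3* (0.90, adjusted p = 0.000861), the pyruvate kinase *Pkm* (0.45, adjusted p = 0.000134) and *Tpi1* (0.42, adjusted p = 0.00456) rose as well (log2 fold changes, edgeR). Without 1 sample 8 to 10 members rose, 4 with the stress covariate or with WD replicates 1 to 3 alone, and 7 without SD replicates 1 and 2. *Ldha* (0.34, adjusted p = 0.0758) and *Tpi1* (0.33, adjusted p = 0.0799) did not pass with the stress covariate.

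Respiratory chain subunits fell in 8 of 37 cases and the others did not pass (median -0.17); their falls were small. *Ndufb5*, of complex I, ran from 57.2 to 70.2 CPM (median 64.8) in the SD samples and from 45.5 to 54.3 CPM (median 50.3) in the WD samples, without overlap (log2 fold change -0.35 ± 0.08 (SE), edgeR adjusted p = 0.00702), and *Ndufa1* fell with overlap (log2 fold change -0.40 ± 0.08 (SE), edgeR adjusted p = 0.00314). The number of calls depended on scaling: with total counts 1 rose and 2 fell. *Ndufb5* (-0.27, adjusted p = 0.0285) and *Ndufa1* (-0.32, adjusted p = 0.0121) kept their calls there (edgeR log2 fold changes). Respiratory chain rises and falls numbered 0 and 8 with the stress covariate, 0 and 2 with WD replicates 1 to 3 alone, and, without SD replicates 1 and 2, 0 and 1. Without 1 sample 3 to 11 fell. Proteasome subunits had 5 falls among 31 (median -0.10), and 3 rises and 2 falls with total counts. *Psma6* was the clearest, from 265 to 352 CPM (median 299) in the SD samples and from 203 to 229 CPM (median 221) in the WD samples, without overlap (log2 fold change -0.49 ± 0.07 (SE), edgeR adjusted p = 7.51e-05), and it kept its call with total counts (-0.41, adjusted p = 0.000436). Proteasome rises and falls numbered 0 and 2 with the stress covariate, 0 and 4 with WD replicates 1 to 3 alone, and, without SD replicates 1 and 2, 0 and 2.

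Iron and heme genes changed in 5 of 20 tested, with 4 down and 1 up (5% up and 20% down; median -0.18). *Fth1*, the ferritin heavy chain, ran from 5327 to 7352 CPM (median 6281) in the SD samples and from 3916 to 5375 CPM (median 4782) in the WD samples (log2 fold change -0.45 ± 0.11 (SE), edgeR adjusted p = 0.011). *Blvrb*, a reductase of the heme breakdown path (-0.40, adjusted p = 0.014), and *Hfe*, a regulator of iron uptake (-0.36, adjusted p = 0.024), fell (log2 fold changes, edgeR). *Lcn2*, which binds iron carriers of bacteria, rose from at most 0.395 CPM in SD to 0.767 to 7.41 CPM in WD (log2 fold change 4.08 ± 0.79 (SE), edgeR adjusted p = 0.0014; 3.45, adjusted p = 0.00723 without WD replicate 6). *Hmox1*, the heme oxygenase, and *Slc40a1*, the iron exporter ferroportin, did not pass (-0.10, adjusted p = 0.781 and -0.33, adjusted p = 0.279; log2 fold changes, edgeR). *Hfe* lost its call in 3 of the 12 fits that each left out 1 sample (SD replicate 4 or WD replicates 3 or 4; log2 fold changes -0.33 to -0.31). Iron gene rises and falls numbered 1 and 0 with the stress covariate, 1 and 2 with WD replicates 1 to 3 alone, and, without SD replicates 1 and 2, 1 and 4. Among 24 NRF2 and glutathione genes 1 rose and 4 fell (4.17% up and 16.7% down; median 0.04): *Gclc*, the first enzyme of glutathione synthesis, rose without overlap (log2 fold change 0.43 ± 0.08 (SE), edgeR adjusted p = 0.00102), and the peroxidase *Gpx1* (-0.34, adjusted p = 0.0199) and the mitochondrial dismutase *Sod2* (-0.41, adjusted p = 0.0246) were among those that fell. The adjusted p went over 0.05 for *Gpx1* without WD replicate 3 (-0.31 on the log2 scale, adjusted p = 0.0506), for *Sod2* without SD replicate 6 (-0.34 on the log2 scale, adjusted p = 0.0677). NRF2 gene rises and falls numbered 1 and 3 with the stress covariate, 1 and 0 with WD replicates 1 to 3 alone, and, without SD replicates 1 and 2, 1 and 2. Of 18 ER stress and amino acid response genes tested 3 rose (median 0.17), led by *Psat1*, an enzyme of serine synthesis (log2 fold change 1.53 ± 0.28 (SE), edgeR adjusted p = 0.000861). ER stress rises and falls numbered 2 and 0 with the stress covariate, 1 and 0 with WD replicates 1 to 3 alone, and, without SD replicates 1 and 2, 1 and 0. *Fth1* (-0.28, adjusted p = 0.198), *Blvrb* (-0.38, adjusted p = 0.0693), *Hfe* (-0.37, adjusted p = 0.0742) and *Sod2* (-0.26, adjusted p = 0.272) did not pass with the stress covariate.

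Adhesion molecules and integrins had 4 rises and 3 falls among 29 (13.8% up and 10.3% down; median 0.11). *Itga6*, a laminin-binding integrin chain, ran from 0.562 to 6.85 CPM (median 5.09) in the SD samples and from 7.83 to 61.1 CPM (median 13.8) in the WD samples, without overlap (log2 fold change 2.34 ± 0.44 (SE), edgeR adjusted p = 0.000872; 1.74, adjusted p = 0.00665 without WD replicate 4), and *Alcam* rose at low level (log2 fold change 2.39 ± 0.58 (SE), edgeR adjusted p = 0.00877). *Itgal*, the LFA-1 alpha chain, ran from 1040 to 1131 CPM (median 1094) in the SD samples and from 778 to 935 CPM (median 859) in the WD samples, without overlap and in the other direction (log2 fold change -0.35 ± 0.09 (SE), edgeR adjusted p = 0.00929), and *Itgb7*, a chain of homing integrins, fell (log2 fold change -1.27 ± 0.35 (SE), edgeR adjusted p = 0.02). The call was lost for *Itgb7* without SD replicate 2 (-1.04 on the log2 scale, adjusted p = 0.0675) and without WD replicate 6 (-1.12 on the log2 scale, adjusted p = 0.0527). Adhesion gene rises and falls numbered 4 and 0 with the stress covariate, 2 and 0 with WD replicates 1 to 3 alone, and, without SD replicates 1 and 2, 4 and 2. With WD replicates 1 to 3 alone *Itga6* (1.37, adjusted p = 0.0613) and *Alcam* (1.65, adjusted p = 0.166) did not pass (edgeR log2 fold changes). *Itgal* (-0.30, adjusted p = 0.0833) and *Itgb7* (-0.94, adjusted p = 0.165) did not pass with the stress covariate.

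Cytokine and chemokine receptors rose in 6 and fell in 2 of 41 tested (14.6% up and 4.88% down; median 0.05). *Ccr1* ran from 0.301 to 1.39 CPM (median 1.05) in the SD samples and from 2.38 to 21.6 CPM (median 6.31) in the WD samples, without overlap (log2 fold change 3.18 ± 0.56 (SE), edgeR adjusted p = 0.000505), and *Cx3cr1*, the fractalkine receptor, from 0.433 to 3.51 CPM (median 1.88) in the SD samples and from 3.77 to 26.02 CPM (median 6.02) in the WD samples, without overlap (log2 fold change 2.50 ± 0.56 (SE), edgeR adjusted p = 0.00502). *Il21r* (2.83, adjusted p = 0.00293) and *Il7r* (3.64, adjusted p = 0.0194) rose from near 0 (log2 fold changes, edgeR). *Il7r* was 6.32, adjusted p = 0.0089 without SD replicate 3, 3.75, adjusted p = 0.129 with the replicate number as a block and 3.53, adjusted p = 0.08 with WD replicates 1 to 3 alone, and it passed in 7 of 12 other settings. *Il10ra*, the receptor chain of interleukin-10, fell without overlap (log2 fold change -0.47 ± 0.11 (SE), edgeR adjusted p = 0.00549), and so did, with overlap, the common gamma chain *Il2rg* (log2 fold change -0.50 ± 0.14 (SE), edgeR adjusted p = 0.0274). With limma-voom no member rose and 2 fell. *Il2rg* lost its call in 5 of the 12 fits that each left out 1 sample (SD replicates 3 or 6 or WD replicates 3, 4 or 6; log2 fold changes -0.49 to -0.40). Receptor rises and falls numbered 4 and 0 with the stress covariate, 1 and 1 with WD replicates 1 to 3 alone, and, without SD replicates 1 and 2, 4 and 4. *Cx3cr1* (1.58, adjusted p = 0.136) and *Il21r* (2.09, adjusted p = 0.0718) did not pass with WD replicates 1 to 3 alone (edgeR log2 fold changes). *Il7r* (3.56, adjusted p = 0.0777), *Il10ra* (-0.26, adjusted p = 0.144) and *Il2rg* (-0.36, adjusted p = 0.22) did not pass with the stress covariate.

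Of 15 growth factors tested 2 rose and 1 fell (13.3% up and 6.67% down; median 0.14). *Gdf3*, of the TGF-beta family, ran from 1.23 to 4.34 CPM (median 2.86) in the SD samples and from 7.21 to 51.03 CPM (median 15.9) in the WD samples, without overlap (log2 fold change 3.02 ± 0.56 (SE), edgeR adjusted p = 0.000767). *Tgfb2* rose from near 0 (log2 fold change 3.21 ± 0.78 (SE), edgeR adjusted p = 0.00888) and *Hbegf*, an EGF receptor ligand, fell (log2 fold change -1.17 ± 0.35 (SE), edgeR adjusted p = 0.0338). No call was left for *Tgfb2* without WD replicate 4 (2.35 on the log2 scale, adjusted p = 0.0501) or with WD replicates 1 to 3 alone (1.79, adjusted p = 0.228). *Hbegf* lost its call in 7 of the 12 fits that each left out 1 sample (all but those without SD replicates 1, 2, 3 or 6 or WD replicate 5; log2 fold changes -1.19 to -0.88). Without SD replicate 4 *Tgfb2* was 3.80, adjusted p = 0.00682. Growth factor rises and falls numbered 4 and 0 with the stress covariate, 1 and 0 with WD replicates 1 to 3 alone, and, without SD replicates 1 and 2, 2 and 1. Eicosanoid genes had 1 rise and 1 fall among 17 (5.88% up and 5.88% down; median -0.11): *Alox15*, a lipoxygenase of alternatively activated macs, rose (log2 fold change 3.36 ± 0.77 (SE), edgeR adjusted p = 0.00626), with ranges that met at 14.1 to 16.4 CPM, and *Alox5ap*, the activator of 5-lipoxygenase, fell (log2 fold change -0.85 ± 0.21 (SE), edgeR adjusted p = 0.0121). *Alox15* was 2.72, adjusted p = 0.0271 without WD replicate 4, and with WD replicates 1 to 3 alone it was 1.73, adjusted p = 0.239 and did not pass. Eicosanoid gene rises and falls numbered 1 and 0 with the stress covariate, 0 and 0 with WD replicates 1 to 3 alone, and, without SD replicates 1 and 2, 1 and 0. Cell death and p53 genes had 1 rise and 3 falls among 22 (4.55% up and 13.6% down; median 0.05): the survival factor *Bcl2* rose (log2 fold change 0.79 ± 0.22 (SE), edgeR adjusted p = 0.0242), and the pyroptosis genes *Gsdmd* (-0.33, adjusted p = 0.0124), *Casp1* (-0.36, adjusted p = 0.0317) and *Casp4* (-0.57, adjusted p = 0.033) fell (log2 fold changes, edgeR). *Bcl2* lost its call in 3 of the 12 fits that each left out 1 sample (SD replicates 1 or 3 or WD replicate 1; log2 fold changes 0.63 to 0.73). *Casp1* lost its call in 7 of the 12 fits that each left out 1 sample (all but those without SD replicates 4, 5 or 6 or WD replicates 4 or 6; log2 fold changes -0.36 to -0.30). *Casp4* lost its call in 7 of the 12 fits that each left out 1 sample (all but those without SD replicates 4, 5 or 6 or WD replicates 1 or 6; log2 fold changes -0.57 to -0.48). Cell death rises and falls numbered 2 and 0 with the stress covariate, 0 and 0 with WD replicates 1 to 3 alone, and, without SD replicates 1 and 2, 0 and 0. *Hbegf* (-0.14, adjusted p = 0.808), *Alox5ap* (-0.57, adjusted p = 0.158), *Bcl2* (0.75, adjusted p = 0.115), *Gsdmd* (-0.25, adjusted p = 0.135), *Casp1* (-0.41, adjusted p = 0.0602) and *Casp4* (-0.44, adjusted p = 0.199) did not pass with the stress covariate.

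The highest falls at 5 CPM or more included genes outside the lists. *Serpina1e*, an alpha-1 antitrypsin gene of hepatocytes, ran from 15.4 to 74.8 CPM (median 41.5) in the SD samples and from 0.158 to 10.96 CPM (median 2.01) in the WD samples (log2 fold change -3.72 ± 0.74 (SE), edgeR adjusted p = 0.00185; -4.61, adjusted p = 0.000426 without WD replicate 5). *Mup21*, a major urinary protein gene, fell (log2 fold change -2.31 ± 0.49 (SE), edgeR adjusted p = 0.00314). Both belong to families of near-identical copies, so their counts are uncertain. The hepatocyte sum had the higher range in WD, and with the hepatocyte score as a covariate their log2 fold changes were -4.15, adjusted p = 0.000137 and -2.79, adjusted p = 3.22e-06. *Tmem176a* and *Tmem176b*, neighbouring membrane proteins of myeloid cells, fell without overlap (-1.69, adjusted p = 0.000327 and -1.64, adjusted p = 0.000121; log2 fold changes, edgeR). *Ephb6*, an ephrin receptor (-2.41, adjusted p = 0.00282), the angiopoietin-like *Angptl6* (-1.19, adjusted p = 0.00409), the glutathione transferase *Gstm5* (-1.17, adjusted p = 0.000861) and *Tmem246* (-1.94, adjusted p = 0.0317) also fell, all without overlap. *Tmem246* lost its call in 5 of the 12 fits that each left out 1 sample (SD replicates 1 or 2 or WD replicates 2, 4 or 6; log2 fold changes -1.90 to -1.77). *Hp*, the gene of haptoglobin and 1 of the 7 monocyte markers, rose (log2 fold change 1.71 ± 0.43 (SE), edgeR adjusted p = 0.0118); hepatocytes make it too. *Angptl6* (-0.87, adjusted p = 0.0702), *Tmem246* (-2.12, adjusted p = 0.0596) and *Hp* (1.16, adjusted p = 0.193) did not pass with the stress covariate.

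**Figure D4:**
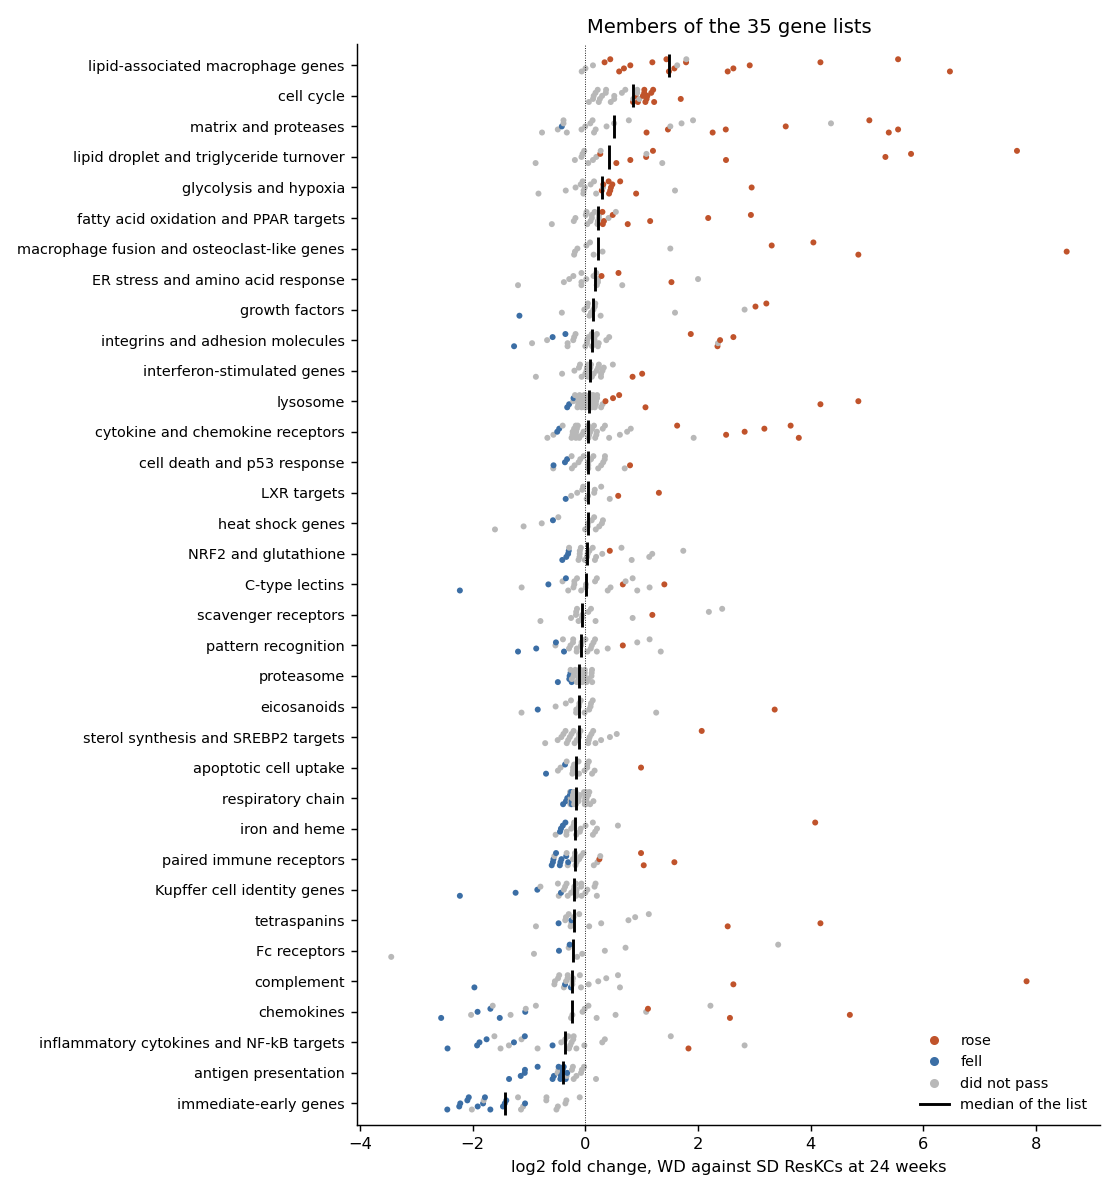
Log2 fold change (WD against SD ResKCs, 24 weeks) of each tested member of 35 gene lists, 1 point per gene, ordered by list median (black bar). Medians run from 1.48 for the lipid-associated genes to -1.43 for the immediate-early genes; the median over all 13421 genes was 0.004.

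At 12 weeks the same comparison called 5 of 13421 genes (0.0373%). Of the 650 genes that rose at 24 weeks 526 were positive at 12 weeks (median 0.194 on the log2 scale), and of the 519 that fell 332 were negative (median -0.057). *Il1rn* was 1 of the 5 and stood at 0.88 ± 0.17 (SE; edgeR adjusted p = 0.0474) after 12 weeks. So was *Lpl*, the only lipid-associated gene that passed then, at 0.72 ± 0.14 (SE; edgeR adjusted p = 0.0474). *Gpnmb* was at 2.47 ± 0.67 (SE; edgeR adjusted p = 0.19), *Cd9* at 1.20 ± 0.31 (SE; edgeR adjusted p = 0.148), and *Cd207* at -1.38 ± 0.32 (SE; edgeR adjusted p = 0.0938), none of which passed. *H2-Ab1* was at -0.32 ± 0.27 (SE; edgeR adjusted p = 0.765).

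The effect of the diet differed between the times, by an edgeR test of the difference itself, for 38 genes (0.283%), 33 of them among the 1169. Of the genes named here 6 were among these. *Serpina1e* had a difference of -4.41 (24 minus 12 weeks, log2; adjusted p = 0.032), *Cd40* of -0.91 (adjusted p = 0.0341), *Lair1* and *Ndufa1* of -0.65 each (adjusted p = 0.00424 and 0.00934), *Psma6* of -0.54 (adjusted p = 0.0195) and *Gclc* of 0.64 (adjusted p = 0.00934). For *Gpnmb*, *Mmp12* and the other lipid-associated genes named here the difference did not pass.

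**Figure D5:**
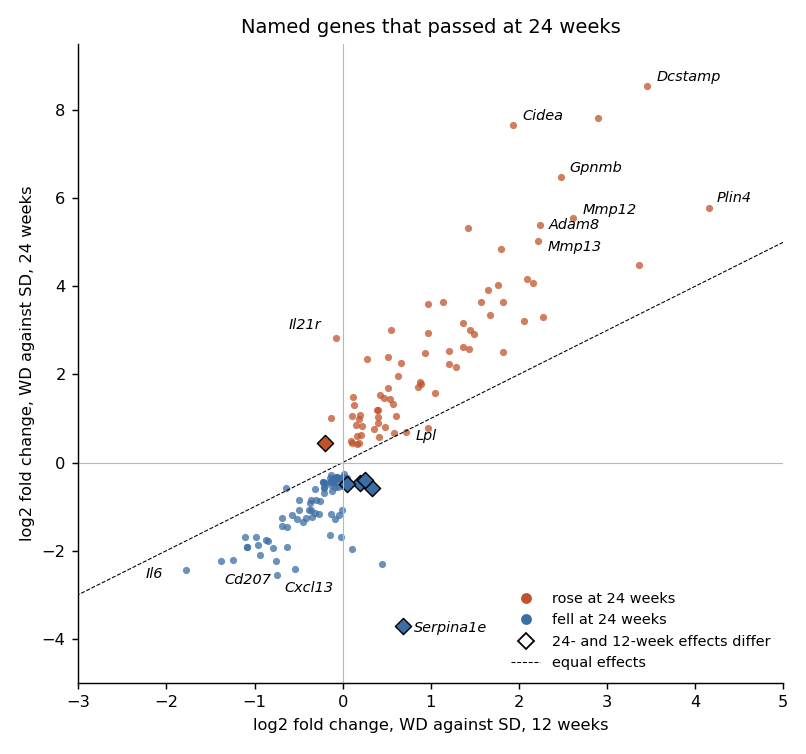
Fitted log2 fold change of WD against SD ResKCs at 12 weeks (horizontal) and 24 weeks (vertical) for the named genes that passed at 24 weeks, in orange where they rose and blue where they fell; the dashed line marks equal effects. Most points lie further from 0 at 24 than at 12 weeks, which the choice of genes by their 24-week result favours in advance. It is no measure of growth with time. Diamonds mark the 6 genes whose effects differed between the times.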

How the data were processed

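Bulk RNA-seq of 12 ResKC samples was compared within a series of 35. The authors prepared TruSeq libraries, sequenced single reads on a NextSeq500, mapped them to mm10 with HISAT2 2.2.0 and counted them with featureCounts 2.0.0; the authors deposited raw counts, in whole numbers, for each gene symbol. Annotation release, strandedness and treatment of multi-mapping reads are not given in the sources used here, so genes that overlap or have near-identical copies are uncertain. Groups were taken from the sample titles; the 5 WD ResKC samples of 12 weeks have a diet field that names the standard diet and were used as WD.

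The filter was more than 1 CPM in 5 or more samples. Counts were scaled with TMM factors and tested with edgeR 4.0.16 in R 4.3.3 (quasi-likelihood test, 1 fit of 6 group means over 35 samples, Benjamini-Hochberg adjustment over 13421 genes). CPM values are TMM-scaled. "Rose" and "fell" mean an adjusted p under 0.05. At this depth the limits given for genes without SD counts cover counting error only. The SE values belong to the edgeR fit and take in the spread between samples. Gene positions are from GENCODE M21 and promoters from RefSeq.

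Named genes are the 12 highest rises and 12 highest falls without overlap at 5 CPM or more, the 5 smallest p, up to 6 members that passed and the first 3 of each of 35 gene lists, and cell type markers; 17 others were chosen after their values were seen, and a few genes that the rule names are not reported here. The members and lists were chosen with earlier results of these data known. Alternatives were DESeq2 1.42.0, limma-voom (limma 3.58.1), total-count scaling, no filter, robust dispersion, the 12 samples alone, the replicate number as a block, covariates for stress, hepatocyte and naming-scheme scores, other samples compared, and each replicate left out. On simulated data with 200 genes changed 4-fold in this comparison, edgeR recovered 171 (85.5%) and called 6 others.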

Additional observations from a re-analysis of the deposited data

Results flagged for a closer look

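In 344 groups of 6 samples (172 genes, SD and WD), 55 had a highest or lowest sample whose gap to the next was over the 95% critical share of the group's range; chance gives about 1 in 20 groups, and genes of 1 sample are not independent. Values are CPM. WD replicate 5 held the highest value of its group for many genes with negative fold changes, in CPM for *Id1* (70.0), *Id3* (843), *C1qa* (5328), *H2-K1* (2285), *Fos* (1174), *Jun* (469), *Egr1* (418), *Dusp1* (1224), *Zfp36* (995), *Btg2* (369), *Ier3* (57.5), *Il1b* (428), *Il10* (11.8), *Socs3* (51.9), *Tnf* (31.9), *Cxcl13* (253), *Cd14* (576), *Blvrb* (466), *Serpina1e* (10.96), *Tmem176a* (113) and *Tmem176b* (419). WD replicate 6 stood above its group for *Mmp12* (1041), *Atp6v0d2* (73.4), *Cd63* (158), *Trem2* (216), *Spp1* (45.1), *Saa1* (80.1), *Fam20c* (101), *Clec7a* (891) and *Ccl9* (191). In WD replicate 4 the high values were those of *Fn1* (686), *Thbs1* (165), *Slpi* (278), *Ifi44* (101), *Il21r* (13.2) and *Tgfb2* (14.3). Those of WD replicate 3 were *Ppara* (13.6), *Gas6* (38.5) and *Csf1* (11.7). SD replicate 6 stood above its group for *Fabp5* (9.23), *Cidec* (0.361), *Cxcl13* (1590), *Pecam1* (285), *Tmem176a* (344) and *Tmem176b* (1041). Single high values were *Spp1* in SD replicate 3 (7.08), *Mmp19* in SD replicate 5 (14.4), *Ciita* in SD replicate 2 (117), *Dnajb4* in SD replicate 5 (30.4), *Fpr2* in WD replicate 2 (34.96), *Tgfb2* in SD replicate 4 (1.30), *Bcl2* in WD replicate 1 (21.6), *Il7r* in SD replicate 3 (0.301). Low values were *Clec7a* in SD replicate 6 (195) and *Pkm* in WD replicate 3 (634).

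The diet effect at 24 weeks differed from that at 12 weeks for 6 of the genes named, by an edgeR test of the difference over all genes. The differences (24 minus 12 weeks, log2) were -0.652 for *Lair1*, -0.913 for *Cd40*, -0.652 for *Ndufa1*, -0.539 for *Psma6*, 0.639 for *Gclc* and -4.408 for *Serpina1e*.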

How the results depend on the processing

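Of the 1169 genes that passed, the count became 696 without SD replicates 1 and 2 (an alternative chosen after the data were seen), 441 with the WD samples of the SD naming scheme alone, 469 with the immediate-early and heat-shock covariate, 450 at an absolute log2 fold change over 1, 305 over 1.5 and 369 at an adjusted p under 0.01. Without 1 replicate it ran from 829 to 1208. With a fold limit of 1 the count of 450 became 282, 183 and 148 in the first 3 settings, 293 with limma-voom and 270 with the naming scheme as covariate, and 323 to 460 without 1 replicate. The 38 genes whose diet effect differed between times became 184 with DESeq2, 71 with the hepatocyte, 64 with the immediate-early and 87 with the naming scheme covariate, and 11 without the filter. The cause was not tested.

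Replicate numbers are shared by the groups but not known to pair mice. The correlation of same-numbered deviations ran from -0.023 to 0.13, and only replicates 3 and 6 correlated best with their own number. With the number as a replicate block 929 genes passed (472 over the fold limit), and of 156 named genes that passed 142 did so again.

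Of these 156, 152 passed with the 12 samples alone, 156 with DESeq2, 126 without SD replicates 1 and 2, 86 with the SD naming scheme alone, 151 with the hepatocyte and 80 with the immediate-early covariate, 147 with total counts, 134 with limma-voom, 128 with the naming scheme covariate, 148 without the filter and 155 with robust dispersion; 120 passed in all 12 fits without 1 replicate. The sign turned only in genes that had not passed or under the immediate-early covariate, where *Jun* was 0.041, *Egr1* 0.14, *Hspa1a* 0.10, *Tnf* 0.23 and *Ccl2* 0.26. *Ciita* was 0.22 without SD replicates 1 and 2, 0.074 with the hepatocyte, 0.085 with the immediate-early and 0.022 with the naming scheme covariate, 0.007 with total counts, 0.003 under the block, and -0.192 to 0.189 without 1 replicate. Depth limits genes near 0 counts in SD, whose fitted folds depend on the prior count.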
